A study of Mus musculus with 8 samples.

Results

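The genes described here are cyclins, DNA replication genes and mitosis genes, a list of 44 genes fixed by name and placed by phase of the cell cycle. Of the 44, 40 had a named row among the 19505 genes and 22206 probes of the array, each on 1 probe. Ccnd1, Mcm7, Ccnb1 and Foxm1 were not analysed here. The 40 comprise 3 genes of G1 and the G1/S transition, 10 of S phase, and 27 of G2 and mitosis. Total RNA of the kidney of NZBWF1 mice, a hybrid strain in which lupus-like nephritis develops with age, was hybridised to Clariom S Mouse arrays. There were 4 mice at 8 weeks of age (replicates 1 to 4) and 4 at 28 weeks (replicates 6 to 9), 1 array per mouse. The mice share the strain and the tissue, and no treatment is given in the labels. No other strain was analysed here, so age and stage of disease cannot be told apart. Values are log2 RMA values deposited by the authors, and the comparison asks how they differ between the 2 ages.

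A dividing cell passes through G1, copies its DNA in S phase, and separates the copies in mitosis after G2. E2F transcription factors open the replication programme at the G1/S transition. A later programme of mitotic genes is switched on in G2, through promoters that often hold a CHR element and CCAAT boxes. Most kidney tubule cells of an adult mouse do not divide, and cells of the organ that can divide include tubule cells under repair and leukocytes. Which cells the transcripts described here came from was not tested.

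Start-site windows are shown for Mki67, Ube2c and Ccnb2, the G2 and mitosis genes with the largest difference between ages among those with a window, for Bub1b and Mcm5, with the smallest p of G2 and mitosis and of S phase, and for Tk1, whose values at 28 weeks all lay below those at 8 weeks. The windows are RefSeq sequences of GRCm38.p6 that run from 250 bases before the transcription start to 50 bases after it, so they hold the promoter and the first transcribed bases. They lie at chr7:135716330-135716629 (minus strand), chr2:164769679-164769978 (plus), chr9:70421505-70421804 (minus), chr2:118597961-118598260 (plus), chr8:75109259-75109558 (plus) and chr11:117825965-117826264 (minus). Capitals mark the CHR letters TTTGAA or TTTAAA, the CCAAT box letters CCAAT, and the E2F letters TTCCCGC with the variant forms TTGGCGC and likewise TTCGCGC and finally TTGCCGC, searched on both strands.
Mki67: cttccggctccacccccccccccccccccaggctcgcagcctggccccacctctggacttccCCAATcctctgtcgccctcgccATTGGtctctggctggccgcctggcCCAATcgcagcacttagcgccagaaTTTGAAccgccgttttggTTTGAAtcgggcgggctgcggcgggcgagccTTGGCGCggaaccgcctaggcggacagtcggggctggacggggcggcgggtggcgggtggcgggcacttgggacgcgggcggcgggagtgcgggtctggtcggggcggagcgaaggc
Ube2c: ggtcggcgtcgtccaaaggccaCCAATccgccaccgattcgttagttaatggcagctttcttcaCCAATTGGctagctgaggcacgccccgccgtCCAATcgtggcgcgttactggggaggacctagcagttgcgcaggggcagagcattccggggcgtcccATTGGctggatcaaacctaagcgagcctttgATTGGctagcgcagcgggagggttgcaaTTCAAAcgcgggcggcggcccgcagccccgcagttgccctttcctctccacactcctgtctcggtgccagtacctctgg
Ccnb2: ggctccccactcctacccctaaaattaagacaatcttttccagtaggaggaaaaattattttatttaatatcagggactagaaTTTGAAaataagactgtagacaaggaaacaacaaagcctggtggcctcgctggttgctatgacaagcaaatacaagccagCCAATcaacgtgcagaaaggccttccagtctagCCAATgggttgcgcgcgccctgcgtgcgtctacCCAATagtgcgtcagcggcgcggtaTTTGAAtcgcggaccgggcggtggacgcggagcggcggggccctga
Bub1b: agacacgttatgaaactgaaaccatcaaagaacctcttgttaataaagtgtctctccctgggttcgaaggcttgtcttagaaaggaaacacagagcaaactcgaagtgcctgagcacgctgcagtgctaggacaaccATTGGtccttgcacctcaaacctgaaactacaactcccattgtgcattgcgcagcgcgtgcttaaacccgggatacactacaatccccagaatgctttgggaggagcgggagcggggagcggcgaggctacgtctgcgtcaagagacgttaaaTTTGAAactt
Mcm5: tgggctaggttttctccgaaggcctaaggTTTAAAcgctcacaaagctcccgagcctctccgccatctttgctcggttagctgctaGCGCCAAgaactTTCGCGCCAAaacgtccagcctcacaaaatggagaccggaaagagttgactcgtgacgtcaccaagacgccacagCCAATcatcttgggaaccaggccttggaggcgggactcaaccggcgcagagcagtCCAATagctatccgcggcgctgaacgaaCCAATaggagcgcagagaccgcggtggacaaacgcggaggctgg
Tk1: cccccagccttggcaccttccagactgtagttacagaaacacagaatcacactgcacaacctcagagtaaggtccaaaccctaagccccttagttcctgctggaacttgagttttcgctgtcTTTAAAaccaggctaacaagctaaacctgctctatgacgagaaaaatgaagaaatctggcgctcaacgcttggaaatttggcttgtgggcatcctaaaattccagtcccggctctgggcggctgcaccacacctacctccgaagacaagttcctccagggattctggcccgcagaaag

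In the Ube2c window 6 CCAAT boxes were found, a pair of which overlap on opposite strands, and a CHR on the opposite strand starts 29 bases before the start site. The Mki67 window held 3 CCAAT boxes, 2 CHR matches at 116 and 98 bases before the start, and an E2F match at 67 bases before it. The Ccnb2 window held 3 CCAAT boxes, at 87, 54 and 21 bases before the start, and CHR matches 167 bases before it and at transcribed base 5. The Mcm5 window held 3 E2F matches, some of which overlap each other, at 164, 152 and 149 bases before the start. It also held 3 CCAAT boxes and a CHR match 221 bases before the start. In the Bub1b window a CCAAT box on the opposite strand lay 113 bases before the start and a CHR match at transcribed base 41. The Tk1 window held a CHR match and neither of the other motifs.

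A window was found for 34 of the 40 genes, and for Ccna2, Ccne2, Mcm4, Aurkb, Tpx2 and Kif20a none was used. Among the 23 G2 and mitosis genes with a window, 19 (82.6%) held a CHR match, 19 (82.6%) a CCAAT box and 18 (78.3%) both. Among the 9 S phase genes with a window, 4 (44.4%) held a CHR match, 7 (77.8%) a CCAAT box and 3 (33.3%) both. A CCAAT box was thus common in both phases. Among all 15691 named genes with a window the shares were 27.6%, 42.2% and 12.5%. An E2F match was in 5 of 9 S phase windows (55.6%), in 3 of 23 G2 and mitosis windows (13.0%) and in 14.2% of all. The 5 genes with none of the motifs were Nusap1, Mad2l1, Melk, Tyms and E2f1, with log2 differences between ages of 1.46, 0.84, 0.82, 0.30 and 0.14. Cdca8 and Ttk, the G2 and mitosis genes of smallest difference (0.19 and 0.17), held a CHR and CCAAT boxes. A match is a description of the letters and not evidence of binding.

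Array medians lay between 5.98 and 6.14, and pairwise correlations between 0.9735 and 0.9934. The defining kidney genes were bright at both ages: Lrp2, a receptor gene of the proximal tubule, averaged 18.13 ± 0.12 in the younger and 18.04 ± 0.23 in the older mice (SD, n = 4), and the thick ascending limb gene Umod was 18.37 ± 0.10 and 18.60 ± 0.12. The podocyte gene Nphs1 was 8.71 ± 0.46 at 8 weeks and 8.76 ± 0.09 at 28 weeks. Replicate 7 of the 28-week group was closer to the 8-week arrays than to its own group: it correlated at 0.9897 on average with the arrays of younger mice, against 0.9858 with those of its own age. The other 28-week arrays correlated more with their own age, replicate 6 at 0.9859 against 0.9763. Replicate 1 at 8 weeks had the lowest correlation with its own age, 0.9832, and 0.9803 with the older mice. Results are given with and without 28-week replicate 7, and the fit without 8-week replicate 1 is described with the other processing settings.

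Most of the 40 cell cycle genes were higher at 28 weeks, with high values in 28-week replicates 6, 8 and 9. The log2 difference, 28 weeks minus 8 weeks, was above 0 in 38 of the 40 genes, where 48.7% of all probes were above 0; with arrays centred on reference genes 33 of the 40 were. Its median was 0.90 (1.86-fold) against -0.01 over all probes, and 17 of the 40 were at least 2-fold higher, against 2.31% of probes. None of the 40 passed limma's test at an adjusted p under 0.05 over all probes, a threshold that 0.968% of probes passed. At an unadjusted p under 0.05, 24 were higher, against 8.36% of probes, and Tk1 was lower, and Bub1b and Ube2c passed with trended robust variances, where 1.8% of all probes did. With array weights 9 of the 40 passed, where 3.93% of all probes did. The weight was lowest for 8-week replicate 1, at 0.3991, and was 0.7994 for 28-week replicate 7. In whole kidney RNA, more cycling cells and more RNA of these genes per cell cannot be told apart.

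Without 28-week replicate 7, 24 of the 40 genes passed at an adjusted p under 0.05, all of them higher, against 3.63% of all probes. These were 19 of the 27 G2 and mitosis genes, 5 of the 10 S phase genes and none of the 3 G1 and G1/S genes. The median difference of the 40 was then 1.17. Replicate 7 was singled out from these same data and was the lowest of its group in 36 of the 40 genes. Leaving it out therefore moved the differences of all genes but Tyms and Tk1 upward. That of Ccne2 turned from -0.11 to 0.11, and that of Tk1 went from -0.58 to -0.61. The p-values without it, here and below, are descriptive and not independent support. In replicate 7 itself, 23 of the 40 genes lay within the range of the 8-week mice, 11 below it and 6 above it. Of all 22206 probes 65.5% lay within that range, 3643 below it and 4012 above it. The 6 genes above the range were Mcm5, Tyms, Bub1, Bub1b, Birc5 and Ube2c.

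**Figure D1:**
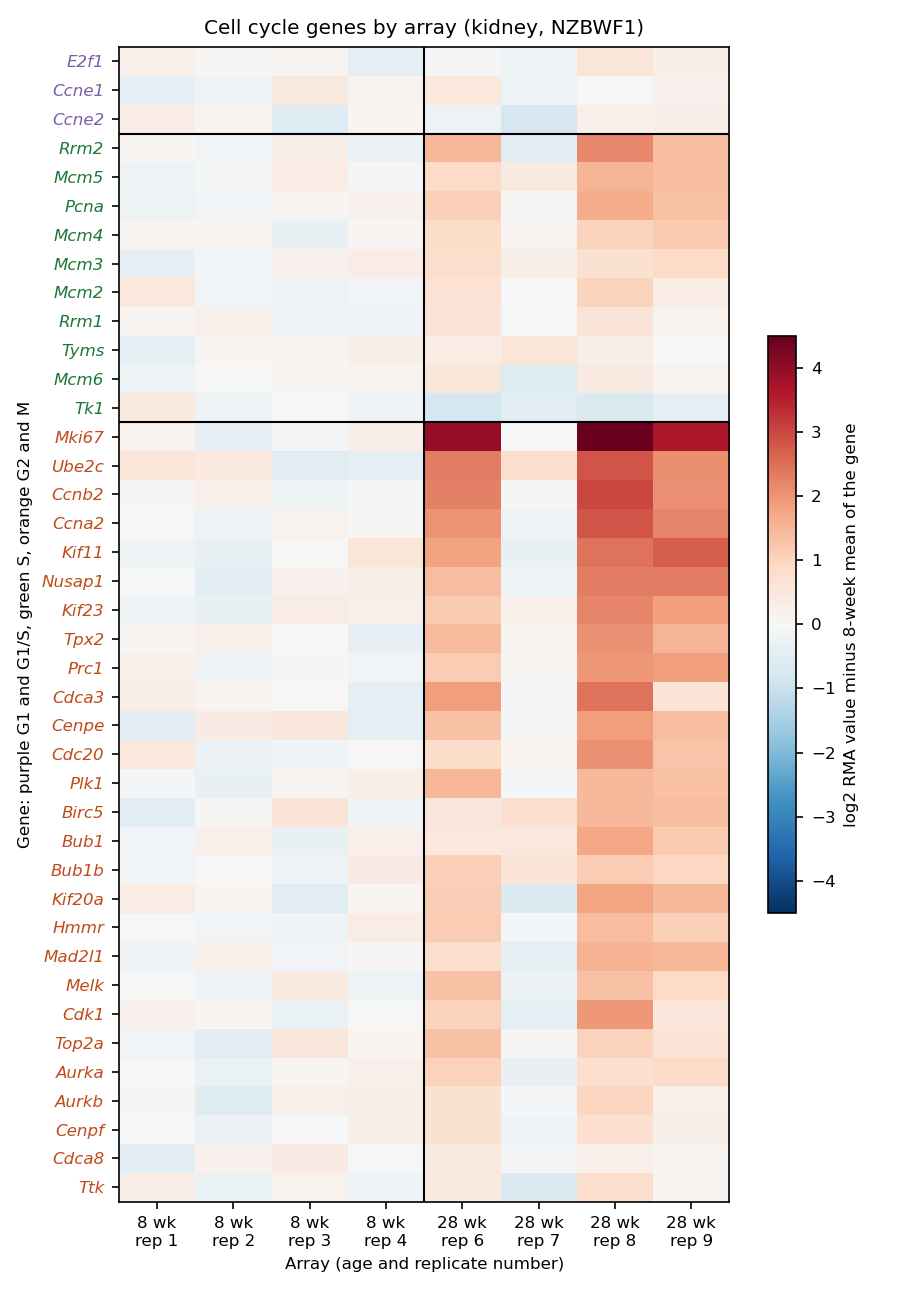
Each cell is the log2 RMA value of a gene (rows, grouped by phase) on an array (columns, 4 at 8 weeks and 4 at 28 weeks) minus that gene's 8-week mean; red is higher and blue lower. The columns of 28-week replicates 6, 8 and 9 are red through most of the G2 and mitosis rows, up to 4.43 for Mki67, and the column of 28-week replicate 7 is pale.

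The median difference was 0.10 for the 3 G1 and G1/S genes, 0.57 for the 10 S phase genes and 1.03 for the 27 G2 and mitosis genes. The last of these medians is a 2.04-fold higher level. All 27 G2 and mitosis genes had a positive difference, from 0.17 to 3.0, as had 9 of the 10 S phase genes and 2 of the 3 G1 and G1/S genes. Centred on reference genes, Ttk (-0.03), Cdca8 (-0.01), Mcm6 (-0.06), E2f1 (-0.06) and Ccne1 (-0.10) turned negative, the G1 and G1/S median became -0.10, and the medians of S phase and of G2 and mitosis were 0.37 and 0.83. Ttk was -0.04 without 28-week replicate 8. The mean over the G2 and mitosis genes, each taken as the value minus its 8-week mean, came to 1.30, 1.81 and 1.34 for 28-week replicates 6, 8 and 9, and to -0.03 for replicate 7. The 8-week mice lay between -0.09 and 0.04. Over the S phase genes it came to 0.64, 0.87 and 0.63 for replicates 6, 8 and 9, and to -0.02 for replicate 7, with 8-week mice between -0.04 and 0.04. Both groups of genes thus placed the 28-week mice in nearly the same way, replicate 8 highest and replicate 7 among the 8-week mice or close to them.

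Among the regulators of the G1/S transition the ages overlapped in every gene. E2f1, the transcription factor that drives replication genes, was 3.47, 3.30, 3.37 and 2.78 in 8-week replicates 1 to 4 and 3.19, 3.04, 3.77 and 3.48 in 28-week replicates 6 to 9. Ccne1, which encodes the cyclin E1 that activates CDK2, was 5.28, 5.46, 6.05 and 5.74 at 8 weeks and 6.09, 5.42, 5.61 and 5.81 at 28 weeks. Its log2 difference was 0.10 (95% interval -0.36 to 0.56). Ccne2, the gene of the related cyclin E2, was 5.79, 5.57, 4.88 and 5.54 at 8 weeks and 5.23, 4.69, 5.67 and 5.75 at 28 weeks. Its log2 difference was -0.11, but 0.11 without 28-week replicate 7 and 0.01 without 8-week replicate 1, so its sign turned when either mouse was left out. The interval of E2f1 ran from -0.32 to 0.60, and these intervals do not show that the ages are alike.

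The replication fork genes were higher on average at 28 weeks, with 6 of 6 differences positive and a median of 0.72. Mcm5, which encodes a subunit of the MCM2-7 helicase that unwinds DNA, was 3.84, 4.03, 4.41 and 4.00 at 8 weeks and 4.93, 4.47, 5.60 and 5.45 at 28 weeks. The lowest 28-week value, that of replicate 7, lay just above the highest 8-week value, so the ages did not overlap. The log2 difference was 1.04 ± 0.25 (SE; limma adjusted p = 0.0824, and 0.00807 without replicate 7). Pcna, the gene of the sliding clamp that holds DNA polymerase on its template, was 12.00, 12.10, 12.34 and 12.42 at 8 weeks and 13.28, 12.28, 13.89 and 13.52 at 28 weeks. Replicate 7 lay within the 8-week range and the other 28-week mice lay above it. Pcna had a log2 difference of 1.03 (2.04-fold, limma adjusted p = 0.131, and 0.00348 without replicate 7). Its probe was the brightest of the 40.

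Another helicase subunit gene, Mcm4, was 6.48, 6.44, 6.02 and 6.43 at 8 weeks and 7.18, 6.47, 7.34 and 7.53 at 28 weeks, again with replicate 7 among the 8-week mice. The subunits were not alike in size of difference, which was 0.79 for Mcm4, 0.65 for Mcm3, 0.48 for Mcm2 and 0.14 for Mcm6. Mcm3, Mcm4 and Mcm5 passed without replicate 7 (adjusted p = 0.0496, 0.00967 and 0.00807) and Mcm2 and Mcm6 did not (adjusted p = 0.171 and 0.28). No test of the differences between subunits was run. Mcm6 was the lowest of all 8 arrays in 28-week replicate 7, at 8.55 where the 8-week mice began at 8.94.

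The nucleotide supply genes had differences of both signs. Ribonucleotide reductase makes deoxynucleotides, and its regulated subunit gene Rrm2 had a log2 difference of 1.13, with 7.98, 6.00, 8.66 and 7.84 in 28-week replicates 6 to 9 and 6.22 to 6.79 at 8 weeks. Rrm2 in replicate 7 thus lay below every 8-week mouse. The large subunit gene Rrm1 had a difference of 0.33 and the thymidylate synthase gene Tyms one of 0.30, and Tyms was highest of all arrays in replicate 7, at 9.05. Rrm2 passed without replicate 7 (adjusted p = 0.00284), while Rrm1 and Tyms did not (adjusted p = 0.249 and 0.674).

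Tk1, the gene of the S phase thymidine salvage kinase, was the gene whose values lay lower at 28 weeks in every mouse. It was 5.96, 5.31, 5.49 and 5.34 at 8 weeks and 4.75, 5.03, 4.89 and 5.11 at 28 weeks. All 4 older mice lay below all 4 younger ones, a separation in that direction seen in 1 of the 40 genes and in 4.33% of all probes. The log2 difference of -0.58 ± 0.18 (SE) did not pass (limma adjusted p = 0.143, and 0.132 without replicate 7). Tk1 was thus lower in the same mice in which Pcna, Rrm2 and Mcm5 were high, as well as in replicate 7. The probe is dim, as are most of the 40, with an 8-week mean of 5.52 where the median over the 40 was 5.09. It is the only Tk1 probe here, and each of the other genes has 1 probe too.

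**Figure D2:**
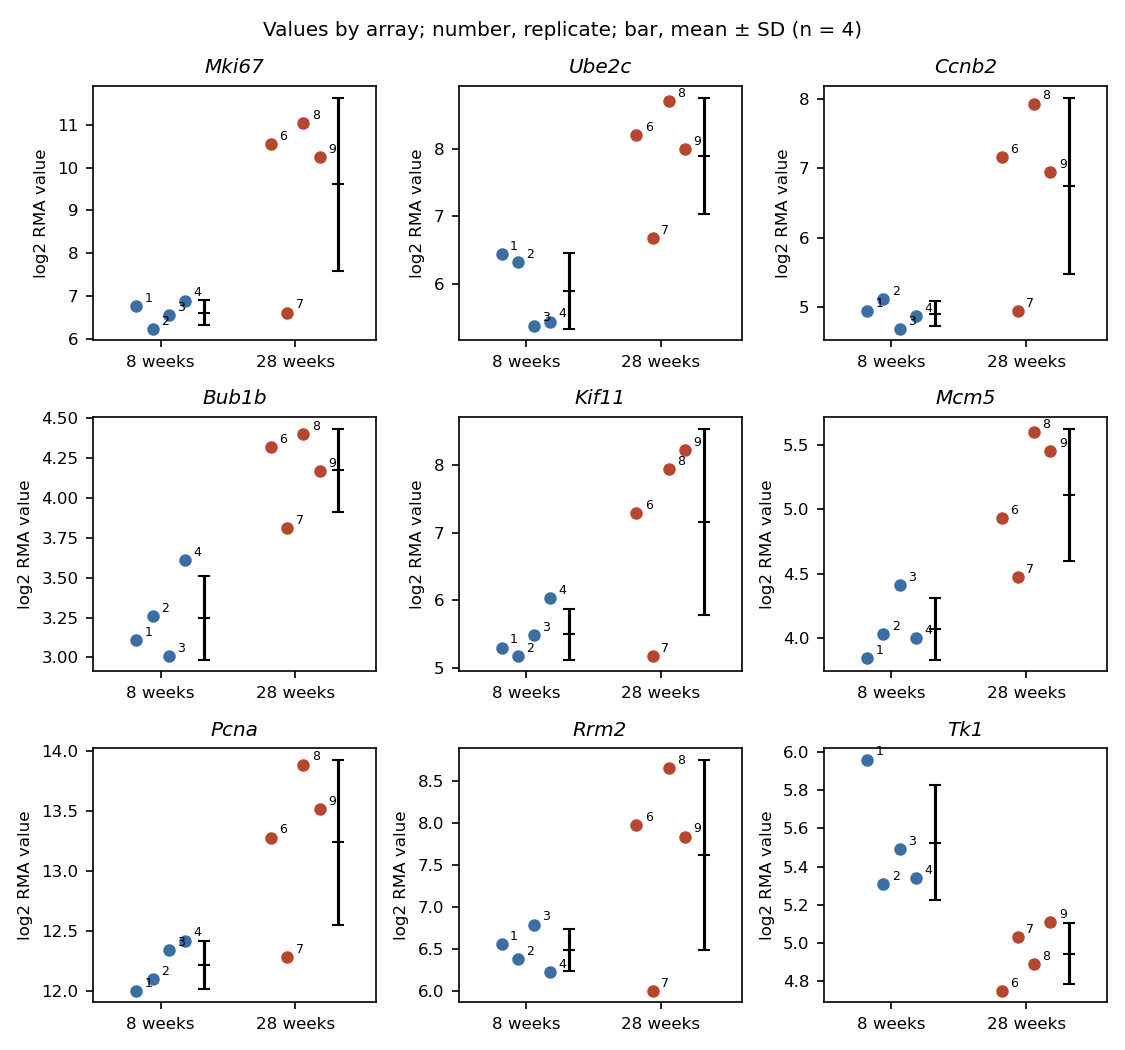
Each point is the log2 RMA value of 1 array for 9 of the genes, numbered by replicate; the bar is the mean ± SD (n = 4 mice at each age), and each panel has its own axis, which does not start at 0. In Mki67, Ccnb2, Kif11 and Pcna 28-week replicate 7 lies within the 8-week range, while in Ube2c, Bub1b and Mcm5 it lies above it and in Tk1 all 28-week values lie below the 8-week values.

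The largest difference of the 40 was that of Mki67, which encodes the proliferation antigen Ki-67 that coats mitotic chromosomes. It was 6.76, 6.23, 6.55 and 6.89 at 8 weeks and 10.56, 6.61, 11.04 and 10.24 at 28 weeks. Replicates 6, 8 and 9 lay far above every 8-week mouse and replicate 7 lay in their midst. The log2 difference was 3.0 ± 0.80 (SE; 8.03-fold; limma adjusted p = 0.105) and 4.01 without replicate 7 (16.1-fold, adjusted p = 6.17e-05). Top2a, which encodes the topoisomerase that untangles chromosomes, was 4.79, 4.42, 5.42 and 4.98 at 8 weeks and 6.23, 4.96, 5.94 and 5.53 at 28 weeks. Its difference of 0.76 had an adjusted p of 0.239, and 0.0569 without replicate 7 (limma), so Top2a passed in neither fit.

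Among the mitotic cyclins and kinases, Ccnb2 and Ccna2 had the largest differences. Ccnb2, the cyclin B2 gene whose protein activates CDK1, was 4.95, 5.12, 4.69 and 4.87 at 8 weeks and 7.16, 4.95, 7.93 and 6.95 at 28 weeks. Its log2 difference was 1.84 (3.58-fold, limma adjusted p = 0.115, and 0.000525 without replicate 7). Ccna2, the cyclin A2 gene of S phase and G2, had a difference of 1.70 and lay between 4.76 and 5.12 at 8 weeks, and at 6.99, 4.75, 7.79 and 7.19 at 28 weeks. Plk1, a kinase of mitotic entry, had a difference of 1.06, Melk, a mitotic kinase, 0.82, Cdk1, the mitotic kinase itself, 0.76, and Aurka, a spindle pole kinase, 0.58. All of these genes but Cdk1 passed without replicate 7, with 0.0164 as the largest adjusted p (limma), and Cdk1 had an adjusted p of 0.0596. The Cdk1 probe was dim, with an 8-week mean of 3.08, the lowest of the 40.

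The kinetochore and checkpoint genes held the smallest p of the list. Bub1b, which encodes the checkpoint kinase BubR1 that delays anaphase, was 3.11, 3.26, 3.01 and 3.61 at 8 weeks and 4.32, 3.81, 4.40 and 4.17 at 28 weeks. All 4 older mice lay above all 4 younger ones, and replicate 7 lay nearest to them. The log2 difference was 0.93 ± 0.18 (SE; 1.90-fold; limma adjusted p = 0.0501, and 0.00926 without replicate 7). Its partner kinase gene Bub1 also did not overlap between the ages, with 3.55 to 4.11 at 8 weeks and 4.34, 4.34, 5.63 and 5.05 at 28 weeks. In all, 4 of the 40 genes, Mcm5, Bub1, Bub1b and Ube2c, had every older mouse above every younger one, against 4.38% of probes. Of these, the probes of Mcm5, Bub1 and Bub1b were dim, with 28-week means of 5.11, 4.84 and 4.18. The median 8-week mean of all probes was 6.01.

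The other 4 of this group were Cenpe, a kinetochore motor gene, Mad2l1, the gene of the checkpoint protein MAD2, Cenpf, a kinetochore protein gene, and Ttk, the gene of the checkpoint kinase MPS1. Their differences were 1.13, 0.84, 0.38 and 0.17. Cenpe and Mad2l1 passed without replicate 7 (adjusted p = 0.0126 and 0.00892), and Cenpf and Ttk did not. The interval of Ttk, -0.46 to 0.79, overlapped those of the other 5 genes of the group, and no difference between genes was tested.

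The chromosomal passenger complex places its kinase on centromeres and the central spindle. Birc5, the gene of its subunit survivin, was 4.65, 5.17, 5.67 and 4.94 at 8 weeks and 5.63, 5.86, 6.56 and 6.50 at 28 weeks. Replicate 7 was above the 8-week range and replicate 6 just inside its top. The difference of 1.03 had an adjusted p of 0.102, and 0.0615 without replicate 7 (limma). The kinase gene Aurkb and the subunit gene Cdca8 had differences of 0.44 and 0.19 and passed in neither fit.

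The genes of mitotic ubiquitination had differences of 2.0 for Ube2c, 1.22 for Cdca3 and 1.08 for Cdc20. Ube2c encodes the ubiquitin-conjugating enzyme that works with the anaphase-promoting complex, which destroys cyclin B. It was 6.44, 6.32, 5.38 and 5.44 at 8 weeks and 8.20, 6.68, 8.71 and 8.00 at 28 weeks. The older mice all lay above the younger ones, replicate 7 by the least. The difference was 2.0 ± 0.41 (SE; 4.01-fold; limma adjusted p = 0.0576, and 0.00196 without replicate 7). Cdc20, the activator of the complex, and Cdca3, a gene of mitotic entry, passed without replicate 7 (adjusted p = 0.0253 and 0.0365).

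All 7 spindle and cytokinesis genes passed without replicate 7 and none with it, their largest adjusted p without it being 0.00726 and their smallest with it 0.115 (limma). Kif23, the gene of the central spindle motor MKLP1, was 6.36, 6.24, 6.93 and 6.82 at 8 weeks and 7.76, 6.83, 8.80 and 8.42 at 28 weeks. Replicate 7 was again within the younger range. Kif11, the motor that pushes spindle poles apart, was highest in replicate 9 at 8.23, and its difference was 1.66. Nusap1 and Tpx2, genes of microtubule assembly factors, had differences of 1.46 and 1.28, and Prc1, which bundles the central spindle, one of 1.26. Kif20a, a cytokinesis motor gene, had 0.92 and Hmmr, the gene of a spindle-associated hyaluronan receptor, 0.88.

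**Figure D3:**
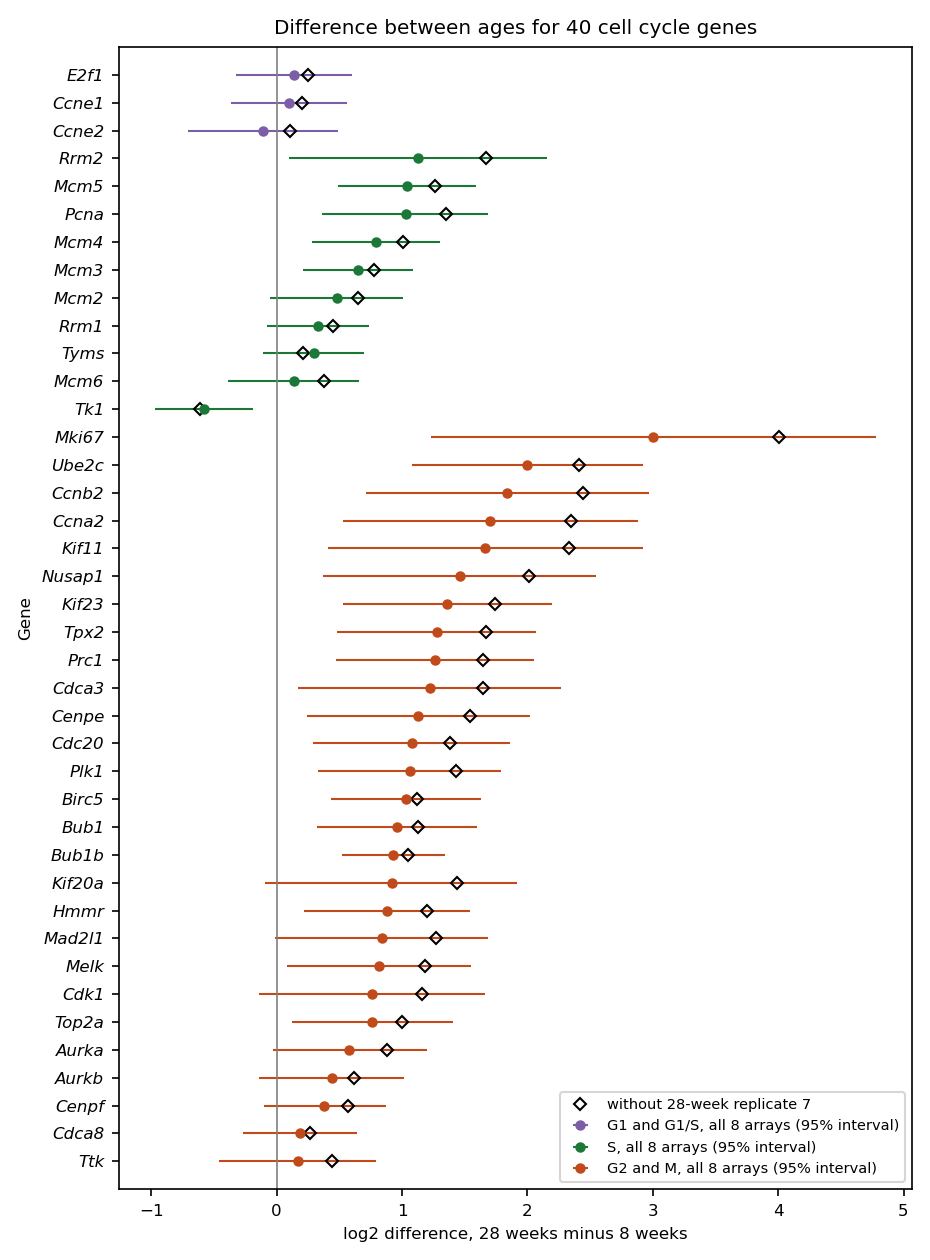
Filled points are log2 differences, 28 weeks minus 8 weeks, of the 40 genes with 95% intervals from limma over all 8 arrays, coloured by phase; open diamonds are the differences without 28-week replicate 7. The G2 and mitosis points run from 0.17 for Ttk to 3.0 for Mki67, Tk1 lies at -0.58, and the diamonds lie to the right of the points in all genes but Tyms and Tk1.

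The 40 genes varied more between mice at 28 weeks, replicate 7 included, than at 8 weeks. No SD was computed without replicate 7, so its part in the spread is not given. The SD was larger at 28 weeks in 34 of the 40, against 42.2% of all probes, and the median log2 ratio of the SDs was 1.24 against -0.20. Within the 28-week group, replicate 8 was highest in 26 genes, replicate 6 in 7, replicate 9 in 6 and replicate 7 in 1. Replicate 7 was the lowest of its group in 36 of the 40, where it was lowest in 25.0% of all probes. At 8 weeks the highest value fell to replicates 1 to 4 in 12, 4, 10 and 14 genes, where each was highest of its group in 33.2%, 21.8%, 24.6% and 20.5% of all probes. Replicate 2 was the lowest of the 8-week group in 14 of the 40, against 20.9% of probes.

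Most probes were dim. The 8-week mean lay under 6.01, the median of all probes, in 30 of the 40 genes. As a guide to signal without expression, 95% of the 1091 olfactory receptor probes had an 8-week mean of at most 6.15, a level chosen after seeing the data, and 30 of the 40 lay at or under it at 8 weeks and 23 at 28 weeks. Mcm5, Bub1 and Bub1b, whose ages did not overlap, had means under that level at both ages. Bub1b, at 3.25 and 4.18, was also under the olfactory receptor median of 4.44. A low value gives the dimness of a probe and not the abundance of a transcript, and RMA can understate the fold of dim probes.

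Other genes of the pathway, from lists that do not hold the 40, had smaller differences in the same direction. Of 44 other replication and S phase genes 42 had a positive difference (median 0.30), none passed with all arrays, and 10 passed higher without replicate 7. The chromatin remodelling gene Hells had a log2 difference of 0.94 (limma adjusted p = 0.053) and the replication helicase gene Cdc45 one of 0.78 (adjusted p = 0.074). Of 61 other G2 and mitosis genes 55 had a positive difference (median 0.44), none passed with all arrays and 19 passed higher without replicate 7. The kinetochore gene Nuf2 had a difference of 1.18 (limma adjusted p = 0.0752) and the chromosome motor gene Kif4 one of 1.46 (adjusted p = 0.105). At an unadjusted p under 0.05, 12 of the 44 and 28 of the 61 were higher, against 8.36% of all probes. Of all probes 48.7% had a positive difference and 3.63% passed higher without replicate 7.

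The upstream regulators were mixed. Of 35 D cyclin, CDK, RB and E2F family genes 23 had a positive and 12 a negative difference, with a median of 0.10 and none past the threshold with all arrays. At an unadjusted p under 0.05, 7 were higher and 2 lower, where 8.36% of all probes were higher and 1472 of the 22206 lower. The RB-binding chromatin gene Rbbp4 had a difference of -0.47 and the G1 kinase gene Cdk6 one of 0.84 (limma adjusted p = 0.107 and 0.116). The growth regulator gene Myc had 1.27, the cyclin genes Ccnd2 and Ccnd3 had 0.68 and -0.18, the kinase genes Cdk4 and Cdk2 had 0.30 and 0.20, and Mybl2, a cofactor of the mitotic programme, -0.21. Without replicate 7, 4 of the 35 passed higher, which were Cdk6, Myc, Ccnd2 and the atypical E2F gene E2f8 (limma adjusted p = 0.0193, 0.0119, 0.00837 and 0.00806), and the RB family gene Rbl2 passed lower (adjusted p = 0.0409); E2f8 and Rbl2 are named after their values were seen. Of 17 DNA damage and checkpoint genes 14 were positive with a median of 0.52, none passed with all arrays, and 2 passed higher without replicate 7. Across all probes 48.7% were positive and 3.63% passed higher without replicate 7. Btg1, an antiproliferative gene, had 0.90 and the kinase gene Chek1 0.88 (limma adjusted p = 0.0607 and 0.0624), and at an unadjusted p under 0.05, 7 were higher and 1 lower.

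Among 8 CDK inhibitor genes 5 had a positive difference, 2 of them at an unadjusted p under 0.05, against 48.7% and 8.36% of all probes. Only Cdkn1a passed with all arrays, where 0.968% of all probes passed. Cdkn1a, which encodes p21, was 7.39, 7.32, 6.79 and 7.21 at 8 weeks and 11.03, 9.78, 10.96 and 11.25 at 28 weeks (limma adjusted p = 0.00147). It was high in replicate 7 too, at 9.78, where Mki67 and Ccnb2 lay within the 8-week range. The median over the 8 inhibitors was 0.16, and Cdkn2c, the gene of p18, had a difference of 0.38 (limma adjusted p = 0.287).

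**Figure D4:**
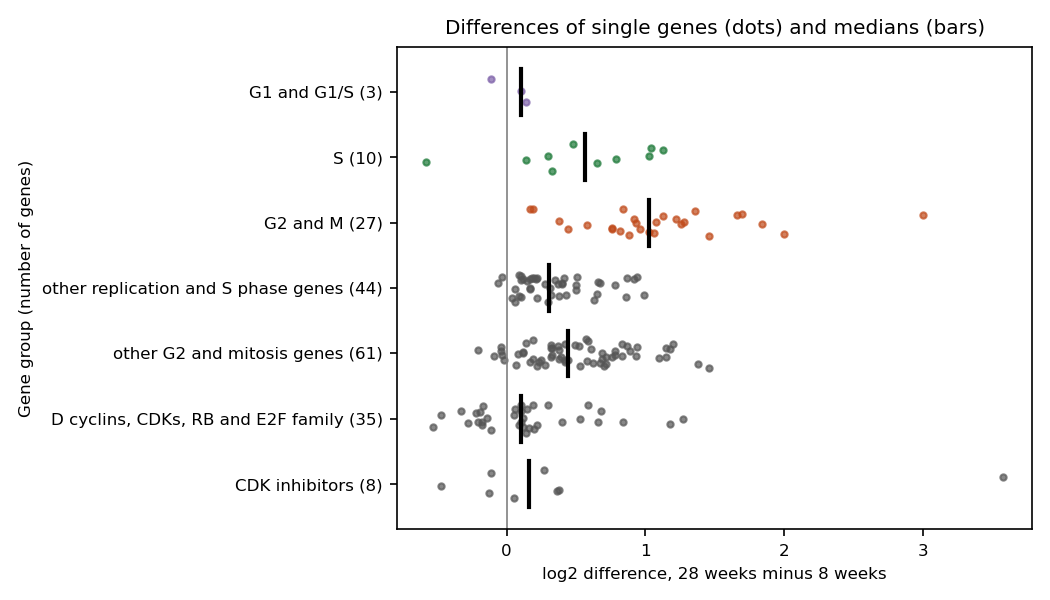
Each dot is the log2 difference, 28 weeks minus 8 weeks, of 1 gene, and each black bar the median of its group; coloured dots are the 40 genes by phase and grey dots the other lists. The medians run from 0.10 for G1 and G1/S to 1.03 for G2 and mitosis, the other G2 and mitosis genes have a median of 0.44, and the dot at 3.58 is Cdkn1a.

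Macrophage and pan-leukocyte markers were high in 28-week replicates 6, 8 and 9, and lymphocyte markers less evenly so. The macrophage and monocyte list had 18 of 19 positive differences with a median of 2.22; no marker passed with all arrays, 17 were higher at an unadjusted p under 0.05, and 17 passed without replicate 7. Their mean, taken as for the cell cycle genes, was 3.28, 0.10, 2.74 and 2.59 in 28-week replicates 6 to 9, so replicate 6 was highest, where replicate 8 was highest in the cell cycle genes. Their summed level, as the log2 of the sum of unlogged values, ran from 11.53 to 12.20 at 8 weeks and from 12.28 to 15.42 at 28 weeks. Lyz2, a myeloid lysozyme gene, had a difference of 4.54, C1qa, a complement gene of macrophages, 2.52 and the macrophage gene Adgre1 1.66 (limma adjusted p = 0.0607, 0.0901 and 0.208). All 8 pan-leukocyte markers were positive, 7 of them at an unadjusted p under 0.05 and none past limma's adjusted threshold, and all 8 passed without replicate 7, with summed levels of 10.04 to 10.20 at 8 weeks and 10.33 to 13.74 at 28 weeks. The pan-leukocyte genes Lcp1, Laptm5 and Ptprc had differences of 2.48, 2.55 and 1.70. For comparison with both lists, 48.7% of all probes were positive and 8.36% were higher at an unadjusted p under 0.05. Without replicate 7, 3.63% of all probes passed higher.

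Lymphocyte markers had smaller median differences. All 12 T cell markers had a positive difference, with a median of 0.47, 5 at an unadjusted p under 0.05, none past limma's adjusted threshold, and summed levels of 8.63 to 8.77 at 8 weeks and 8.72 to 9.44 at 28 weeks. Without replicate 7, 3 passed. Their mean was 0.71, 0.11, 0.66 and 0.40 in 28-week replicates 6 to 9. Cd3e, a T cell receptor complex gene, had a difference of 1.08 and the costimulator gene Icos 0.73. Of 15 B cell and plasma cell markers 12 were positive, with a median of 0.47, 6 at an unadjusted p under 0.05, none past that threshold, and summed levels of 14.04 to 14.21 at 8 weeks and 14.02 to 14.72 at 28 weeks. The bright gene Xbp1 (13.97 to 14.26 at 28 weeks), which other secretory cells also express, makes up most of that sum. In 28-week replicate 6 the sum of 14.72 lay well above every Xbp1 value, so other genes of the list add to it there. The mean of the list was 1.46, 0.25, 0.75 and 0.16 in 28-week replicates 6 to 9, so replicate 9 lay below replicate 7, and 2 markers passed without replicate 7. Among the plasma cell genes Jchain, the immunoglobulin joining chain gene, had a difference of 4.77, Mzb1 0.55, Sdc1 0.52, Xbp1 0.05, Tnfrsf17 -0.21, Derl3 -0.31 and Prdm1 -0.34. Among all probes 48.7% were positive, 8.36% were higher at an unadjusted p under 0.05 and 3.63% passed higher without replicate 7. No marker of these lists is at 0 on this scale, and the part of leukocytes in the differences of the cell cycle genes was not tested.

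Tubule markers differed on average between the ages as well. Of 13 tubule injury markers 12 were positive (median 0.78) and 6 passed higher without replicate 7, against 48.7% and 3.63% of all probes. Their summed levels were 17.06 to 17.35 at 8 weeks and 17.12 to 19.00 at 28 weeks. Vcam1, an adhesion molecule of injured tubules, rose by a log2 difference of 2.62 (limma adjusted p = 0.0423), and the injury gene Lcn2 had 6.26 (adjusted p = 0.0752). All 13 proximal tubule markers were negative (median -0.33), with summed levels of 20.88 to 20.95 at 8 weeks and 20.41 to 20.85 at 28 weeks, and Slc22a6, an organic anion transporter gene, fell by 0.91 (limma adjusted p = 0.0313). Of 12 distal nephron and collecting duct markers 5 were positive and 7 negative, from -2.71 to 0.99. The ages did not overlap in 2 higher and 5 lower ones, against 4.38% and 4.33% of all probes. None passed with all arrays, and 3 were higher and 7 lower at an unadjusted p under 0.05. At that level 8.36% of all probes were higher and 1472 of the 22206 lower. The median was -0.32 for 6 podocyte, 0.20 for 8 endothelial, 0.47 for 9 fibroblast, mesangial and smooth muscle, 0.05 for 4 erythroid markers and 0.14 for 13 reference genes, with none past limma's adjusted threshold and 1, 2, 1, 0 and 3 at an unadjusted p under 0.05. In either direction, 15.0% of all probes had an unadjusted p under 0.05. The part of these cell types was not tested either.

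**Figure D5:**
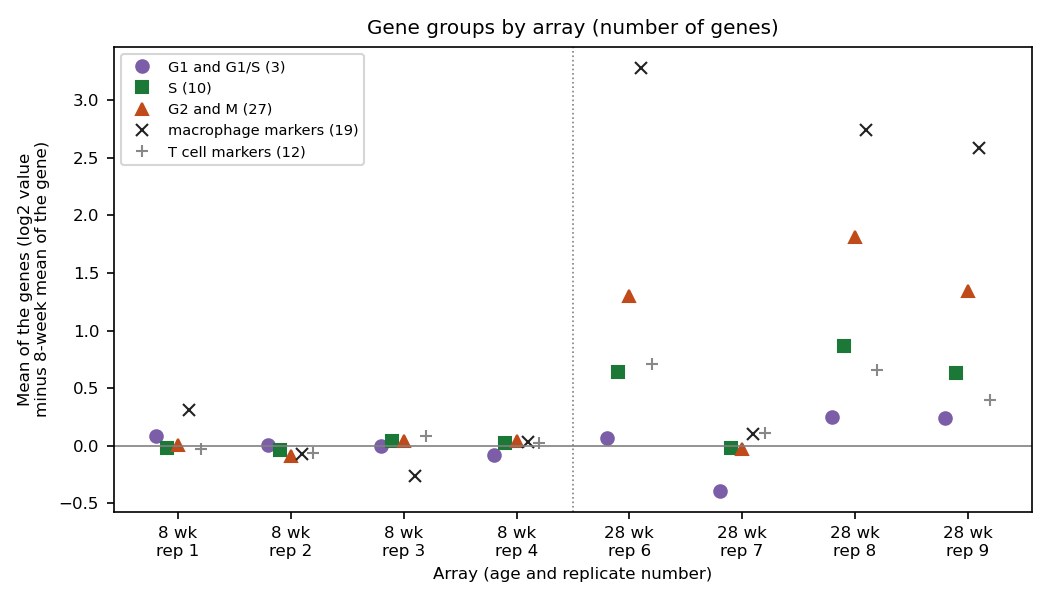
Each symbol is the mean of a gene group on 1 array, each gene taken as its log2 value minus its 8-week mean; the dotted line parts the 4 arrays at 8 weeks from the 4 at 28 weeks. The G2 and mitosis symbols are highest in 28-week replicate 8 (1.81) and the macrophage symbols in 28-week replicate 6 (3.28), and in 28-week replicate 7 the same 2 groups lie at -0.03 and 0.10.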

How the data were processed

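Total RNA of 8 kidneys came from a Trizol extraction and went onto the arrays as biotin-labelled cRNA, per the labels' protocols. The authors deposited log2 values. RMA is the method in the submitters' processing notes, where its version is not given. In its usual form it subtracts background, brings arrays to a common distribution and gives 1 value per transcript. The log base is not stated and was taken as 2 from the range of the values, 2.31 to 19.89. No column outside the 8 samples was present, nothing used here gives a scan date or a batch, and the number of arrays limits precision.

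The ages were compared on all 22206 probes by limma 3.58.1 (lmFit, then eBayes) under R 4.3.3. P-values were adjusted by Benjamini-Hochberg across the whole array, and an adjusted p under 0.05 passed. The code was tested on simulated data. Symbols came from the platform annotation, in which 19572 probes (88.1%) have 1 symbol, 0 have several and 2634 are unnamed. A gene on several probes was its brightest, and each of the 40 genes has 1.

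The genes and lists were chosen with earlier results of these data known, so no p was adjusted over a list and none was computed for one. The genes whose 8 values are all given are the 6 of smallest p in G2 and M, the 3 in S and the 2 in G1 and G1/S, with Mki67, Top2a, Pcna and every gene of negative difference; a few others were added after their values were seen. In the other lists, genes past the threshold are named, or else the pair of smallest p, with 13 further genes fixed by name. Alternatives were other scalings, a filter on dim probes, other variance models, and arrays left out. Figures used Python 3.11.15 and matplotlib 3.10.9.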

Additional observations from a re-analysis of the deposited data

Results flagged for a closer look

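In 3 of the 80 groups of 4 arrays formed by the 40 genes and the 2 ages, 1 array lay far from the others of its group, by a gap to the nearest array that took a share of the group's whole range above Dixon's 95% critical value. Chance flags about 1 in 20 groups. Mcm2 was 6.80 in 8-week replicate 1, where the nearest array was 6.19. Mcm4 was 6.02 in 8-week replicate 3, where the nearest was 6.43. Plk1 was 5.48 in 28-week replicate 7, where the nearest was 6.87.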

How the results depend on the processing

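The number of the 40 genes past the threshold is given with the share of all probes past it. It was 0 (0.968% of all probes) in the fit reported and 0 (0.797%) with array medians made equal. It was 1 (Bub1b; 1.11%) after quantile normalization, 1 (Ube2c; 1.95%) after centring on reference genes, and 1 of 31 (Ube2c; 1.86%) without the dimmest probes. Trended robust variances gave 2 (1.8%) and array weights 9 (3.93%). Leaving out each array in turn gave 0 to 24, with 24 (5.57%) only without 28-week replicate 7, and a fit that dropped the pair of 8-week replicate 1 and 28-week replicate 7 gave 24 (6.23%). Genes whose ages did not overlap in either direction numbered 5 (8.71% of all probes). Fewer arrays separate more easily: the range was 5 to 30 with arrays left out in turn, with 9 (14.0%) without 8-week replicate 1, 30 (17.3%) without 28-week replicate 7 and 31 (24.5%) without both. Without the dimmest probes it was 2 of 31 (11.3%). Centring on reference genes moved the median of all probes to -0.21 and that of the 40 genes to 0.70, and turned Ccne1 (-0.10), E2f1 (-0.06), Mcm6 (-0.06), Ttk (-0.03) and Cdca8 (-0.01) negative. With arrays left out in turn, Ccne1 ran from -0.02 to 0.24, Ccne2 from -0.30 to 0.11, E2f1 from -0.01 to 0.25, Mcm6 from 0.00 to 0.38 and Ttk from -0.04 to 0.44. Without both arrays, Ccne2 was 0.22, E2f1 0.33 and Ttk 0.54. The G1 and G1/S median, 0.10, changed sign in 3 settings: -0.10 centred on reference genes, -0.02 without 28-week replicate 6 and -0.01 without 8-week replicate 4. The S phase and G2 and mitosis medians stayed positive in every setting run. The cause of the other changes was not tested. Taking all probes of a gene changed nothing, since each gene has 1. No paired analysis was possible because the 2 ages share no replicate number in the labels.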
